A study of Mus musculus with 672 samples.

Results

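Transcripts of 6 genes used by antibody-producing cells were followed through 3 stages of lymphoid progenitors from mice with and without Mbd3. The genes were chosen by name: Ighm, Ighd and Igkc encode antibody constant regions, Jchain, Mzb1 and Sdc1 are known from plasma cells, and together they are 6 of 46078 genes in the deposited table. Single cells were sorted from femur and tibia marrow of 4 mice aged 7 weeks, kept on a C57BL6/129Ola background. Mice 18218 and 18220 were controls with the Mbd3 flox/flox genotype, and mice 18217 and 18219 were null, with the Mbd3 del/del genotype. All cells passed a lineage-negative, Sca-1+, c-Kit+, Flt3-high, B220- gate. Lymphoid-primed multipotent progenitors (LMPP) were then taken without surface IL-7 receptor alpha, all-lymphoid progenitors (ALP) with that receptor but without Ly6D, and B cell-biased lymphoid progenitors (BLP) with both proteins. The labels do not say what drove the deletion or in which cells it acted, and each genotype rests on 2 mice.

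An antibody is built from heavy and light chains, each with a variable part joined from V, D and J gene segments and a constant part encoded by a separate block of exons. In B cell development the heavy chain locus rearranges before the light chain loci, and the constant mu exons are also transcribed from a locus that has not yet been rearranged. Plasma cells, the end stage of the lineage, secrete antibody in bulk. Jchain joins IgM and IgA units into polymers, Mzb1 is an endoplasmic reticulum protein that assists antibody assembly, and Sdc1 (CD138) is the heparan sulfate proteoglycan by which plasma cells are commonly sorted. Mbd3 is a subunit of the NuRD complex, which remodels nucleosomes and removes histone acetyl groups.

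After filtering 561 cells were kept, 277 from control and 284 from null mice, and 86 of the 111 left out were ALP of mice 18219 and 18220. Summed per mouse and population, the 12 libraries held 53741264 to 137497554 gene counts. Median nuclear counts per cell were lower in null than in control cells, for example 1100429.5 against 2072742.5 in LMPP. Mbd3 itself stood at 48.1 to 191 CPM, counts scaled to a common library size, in the 6 control libraries and at 0.19 to 24.7 CPM in the 6 null libraries. At least 10 Mbd3 reads were found in 162 control cells (58.5%) and in 3 null cells (1.06%). The 24.7 CPM came from the LMPP library of null mouse 18219. There the 1 cell with 10 reads or more held 1409 of the 1434 Mbd3 reads (98.3%). Transcripts of the sorted proteins followed the gates only in part. Il7r, the IL-7 receptor alpha gene, was 6.14 log2 units higher in ALP than in LMPP (edgeR quasi-likelihood test, Benjamini-Hochberg adjusted p = 2.26e-05). Ly6d was 5.15 log2 units higher in BLP than in ALP (adjusted p = 0.0189 by the same test), a call lost in 8 of 15 alternatives, with 4.67 to 6.09 log2 units. It was already 4.51 log2 units higher in ALP, sorted without Ly6D, than in LMPP (edgeR adjusted p = 0.00366). Kit, the c-Kit gene, changed by −1.99 log2 units from LMPP to ALP (edgeR adjusted p = 0.0116), although all cells were sorted as c-Kit+. These last calls, of Ly6d and Kit, were lost in 5 and 4 of 15 alternatives.

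The exons behind the counts set what the values can show. In GRCm38, Ighm lies on the minus strand at chr12:113418558-113422730 with 6 exon blocks of 1886 bases, and Ighd lies beside it at chr12:113406604-113416324 with 6 blocks of 1900 bases. Igkc is a single exon of 532 bases on the plus strand at chr6:70726435-70726966. The first 150 bases of each constant region are shown because this edge is where a rearranged variable exon is spliced on. Capitals mark the 20 bases next to that junction. The stretches are chr12:113422581-113422730 for Ighm, chr12:113416175-113416324 for Ighd and chr6:70726435-70726584 for Igkc.
Ighm: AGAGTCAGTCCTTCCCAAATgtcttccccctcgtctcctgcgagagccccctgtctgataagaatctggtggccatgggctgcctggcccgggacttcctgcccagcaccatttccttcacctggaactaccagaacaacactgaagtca
Ighd: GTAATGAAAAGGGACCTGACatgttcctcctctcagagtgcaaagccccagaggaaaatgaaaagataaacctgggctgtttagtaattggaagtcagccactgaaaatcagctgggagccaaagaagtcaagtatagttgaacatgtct
Igkc: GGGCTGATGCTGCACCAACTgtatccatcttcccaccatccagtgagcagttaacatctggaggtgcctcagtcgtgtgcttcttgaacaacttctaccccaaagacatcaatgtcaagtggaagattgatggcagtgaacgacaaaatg
A gene count adds every read over such exons, whatever was spliced in front of them. Transcripts with and without a variable exon were therefore counted together, as were the annotated Ighm transcripts of 1698 and 1493 bases. Igkc lies within the lincRNA Gm30211 on the same strand and shares no exonic base with it.

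Ighm was abundant in every population and was higher in the later gates. In LMPP it stood at 1224 and 1005 CPM in control mice 18218 and 18220, and at 976 and 1030 CPM in null mice 18217 and 18219. In ALP the same mice gave 2290, 2889, 2220 and 2255 CPM, and in BLP 2965, 3124, 2885 and 2755 CPM. Every ALP and BLP library lay above every LMPP library, while the highest ALP library reached the range of BLP. The mean over 4 mice was 1059 ± 113 CPM in LMPP, 2414 ± 318 in ALP and 2933 ± 154 in BLP (SD, n = 4). Between LMPP and ALP Ighm rose by 1.19 ± 0.09 log2 units (SE, edgeR quasi-likelihood test, Benjamini-Hochberg adjusted p = 0.000818), and adjusted p ranged from 6.71e-17 to 0.0876 over the alternative analyses. The call was lost without mouse 18217 (adjusted p = 0.0789) or without mouse 18219 (0.0876 in edgeR), with 1.17 and 1.20 log2 units. Within controls the rise was 1.22 ± 0.13 and within null mice 1.16 ± 0.13 log2 units (edgeR adjusted p = 0.0137 and 0.0146). With mouse as a replicate block these became 1.21 (edgeR adjusted p = 0.0575) and 1.16 (0.0718). Over 15 alternatives the control rise lost its call in 7 (adjusted p up to 0.533) and the null rise in 8 (up to 0.724), each time including the fits without each of the 4 mice. From ALP to BLP the difference of 0.28 ± 0.09 was not called (adjusted p = 0.417, edgeR), and from LMPP to BLP the rise was 1.47 ± 0.10 (edgeR adjusted p = 0.000167).

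Reads of Ighm were spread over nearly all cells. At least 100 reads were found in 537 of 561 kept cells, against 3 of 111 wells that failed the cell filter. A minimum of 10 reads does not separate them, since 560 kept cells and 101 of the failed wells reached it. When each cell was thinned to 50000 gene counts, 89.4% to 97.9% of LMPP, 97.5% to 100% of ALP and 100% of BLP held a read. A summed library cannot tell fewer expressing cells from less RNA per cell, but for Ighm the share of cells was near its ceiling in each population. The coefficient of variation over cells ranged from 40.8% to 101% among libraries. In the plot of single cells a tail of LMPP with low Ighm is visible, and few ALP lie there.

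Between genotypes Ighm differed by −0.15 ± 0.13 log2 units in LMPP, −0.21 ± 0.13 in ALP and −0.11 ± 0.13 in BLP, null minus control. None of these was called (edgeR adjusted p = 0.876, 1 and 0.872). The genotype difference of Ighm also did not pass the interaction tests between successive gates, at −0.06 ± 0.19 and 0.10 ± 0.19.

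**Figure D1:**
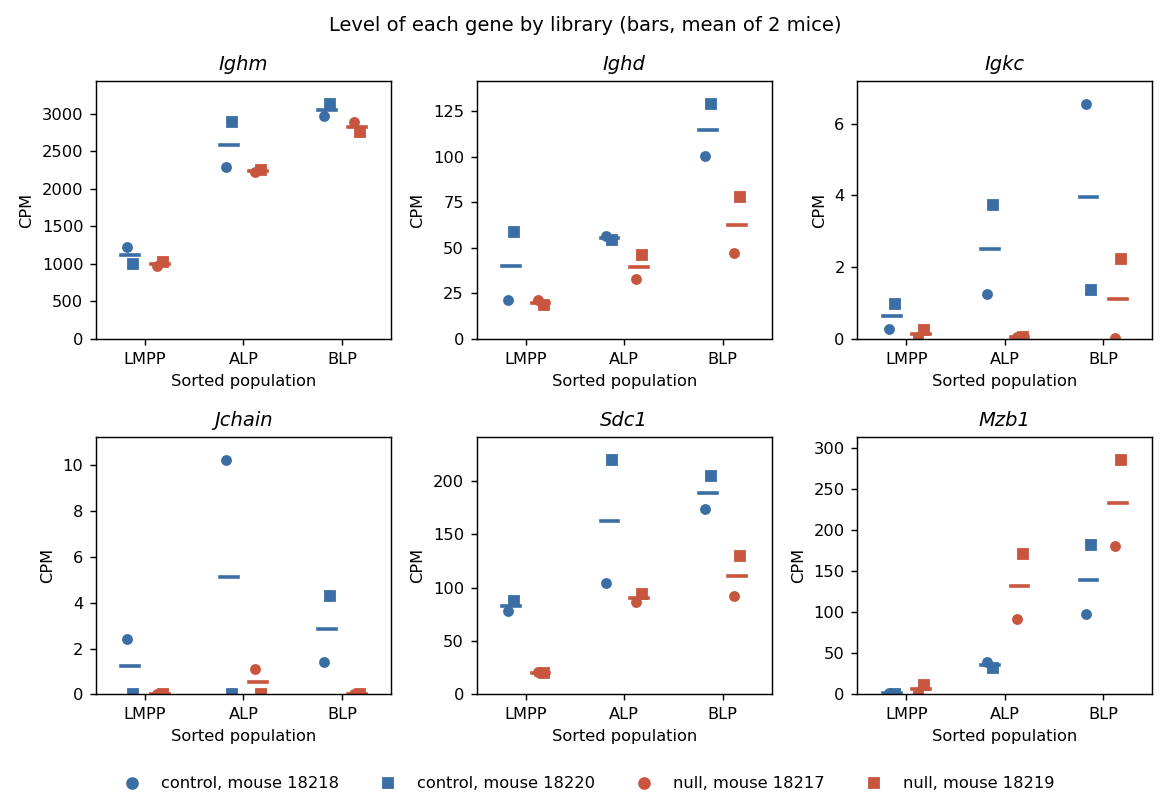
Level of each of the 6 genes in CPM, on a linear axis of its own from 0, for each mouse in LMPP, ALP and BLP, with blue for control and red for null mice and bars at the mean of 2 mice. Ighm lies between 976 and 3124 CPM in every library, and Igkc and Jchain do not exceed 6.53 and 10.2 CPM.

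Ighd, the constant delta gene transcribed behind Ighm, was far lower. LMPP held 21.6 and 59.0 CPM in control mice 18218 and 18220 and 21.1 and 18.9 CPM in null mice 18217 and 18219. ALP held 56.3, 54.4, 32.8 and 46.1 CPM in the same order, and BLP 100.3, 129, 47.2 and 78.0 CPM. Null libraries lay below both control libraries in each population, although in LMPP null mouse 18217 was close to control mouse 18218. Mouse means were 30.2 ± 19.2 CPM in LMPP, 47.4 ± 10.7 in ALP and 88.6 ± 34.5 in BLP (SD, n = 4), with neighbouring stages overlapping. Per kilobase of exon, the level of Ighm was 17.2 to 68.2 times that of Ighd in the same library.

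Ighd rose from LMPP to BLP by 1.58 ± 0.34 log2 units (edgeR adjusted p = 0.0348, range over alternatives 5.86e-05 to 0.280). That call was lost without each mouse in turn, with adjusted p of 0.183 without mouse 18217, 0.157 without 18218, 0.280 without 18219 and 0.114 without 18220 (edgeR). The steps from LMPP to ALP (0.72 ± 0.33, edgeR adjusted p = 0.403) and from ALP to BLP (0.86 ± 0.33, adjusted p = 0.468) were not called. Against controls, null mice differed by −1.01 ± 0.47 in LMPP, −0.49 ± 0.46 in ALP and −0.87 ± 0.47 in BLP (edgeR adjusted p = 0.737, 1 and 0.608). The LMPP value was −0.13 without mouse 18220. At equal depth, 19.1% and 23.4% of control LMPP (mice 18218 and 18220) held an Ighd read, against 15.6% and 17.0% of null LMPP (18217 and 18219). The shares were 43.2% and 35.0% against 29.1% and 28.6% in ALP, and 52.9% and 48.6% against 36.1% and 40.0% in BLP. Null shares were the lower ones at each stage, at the smallest p that 2 mice against 2 allow in a two-sided exact permutation test (0.333).

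Variable, diversity and joining segments of the heavy chain were also counted, each summed over its family. Reads on Ighv segments came to 119 to 197 CPM in LMPP, 181 to 375 in ALP and 207 to 260 in BLP. At least 10 such reads were found in 140 of 186 LMPP, 220 of 235 ALP and 119 of 140 BLP. Joining segments (Ighj) summed to 9.0 to 11.4 CPM in LMPP and to 25.9 to 47.4 CPM in ALP, ranges with no overlap, and BLP held 38.8 to 41.8 CPM. Diversity segments stood at 0.3 to 0.8, 4.3 to 6.4 and 8.1 to 11.8 CPM in LMPP, ALP and BLP, so the ranges of successive stages did not overlap. Short segments with many near-identical copies are counted with uncertainty, and a read on a segment does not show that it was joined to another.

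Igkc, the kappa light chain constant gene, was rare. LMPP held 0.28 and 0.98 CPM in control mice 18218 and 18220 and 0.04 and 0.24 in null mice 18217 and 18219. ALP held 1.26, 3.74, 0.05 and 0.06 CPM, and BLP 6.53, 1.37, 0.02 and 2.22 CPM, in the same order. Controls lay above null mice in LMPP and ALP, and in BLP the groups overlapped. All kept cells gave 1410 Igkc reads. At least 10 were found in 17 of 561 cells, 12 from control mouse 18220, 4 from control mouse 18218 and 1 from null mouse 18219. This minimum depends on depth, which was lower in null cells. At equal depth Igkc was read in 0 and 5 control LMPP (18218 and 18220) against 0 and 2 null (18217 and 18219). The cells were 2 and 3 against 0 and 0 in ALP, and 1 and 1 against 1 and 1 in BLP. A single cell with 508 reads held 95.3% of the Igkc reads of BLP from mouse 18218, and a cell with 109 reads held 93.2% of those from null mouse 18219. The ALP difference of −5.46 ± 2.11 log2 units, null minus control, was not called (edgeR adjusted p = 1). At equal depth 0% to 10.6% of cells held an Igkc read, while 0% to 8.51% of null cells held a read of the deleted Mbd3 gene. The source of those Mbd3 reads was not tested, so their share is no measure of background for Igkc. Whether single Igkc reads are background was not tested either. Kappa variable segments reached 10 reads in 5 of 186 LMPP, 28 of 235 ALP and 25 of 140 BLP.

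Jchain lies on the minus strand at chr5:88519809-88527891 with 4 exon blocks. It was found in a few cells, mostly of 1 control mouse. Its level in LMPP was 2.43 and 0.01 CPM in control mice 18218 and 18220 and 0 in both null mice. ALP held 10.2, 0.01, 1.09 and 0 CPM, and BLP 1.43, 4.27, 0.02 and 0.02 CPM, in mice 18218, 18220, 18217 and 18219. These levels follow single cells: of 2177 reads, 812 lay in 1 ALP of mouse 18218, which is 64.3% of that library's Jchain reads. At least 10 reads were found in 9 of 561 cells, 7 from control mouse 18218 and 1 each from control mouse 18220 and null mouse 18217. No read was found in 92 null LMPP of 2 mice. That allows a share of cells with a read of up to 3.26%, by counting error alone and without spread between mice. None of the 9 Jchain cells held a read of Prdm1, the regulator that drives plasma cell differentiation, nor did any of the 17 Igkc cells. Prdm1 was rare everywhere, with at least 10 reads in 5 of all 561 kept cells. These zeros therefore cannot set the Jchain or Igkc cells apart from other cells. No cell held at least 10 reads of both Igkc and Jchain. No Jchain contrast was called, and fitted folds against libraries at 0 are not given.

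Mzb1 lies on the minus strand at chr18:35647267-35649367 and shares 695 exonic bases with a Spata24 gene model that is not among the genes of the table. It was nearly absent from LMPP and rose in ALP and BLP. LMPP held 2.20 and 1.00 CPM in control mice 18218 and 18220 and 3.17 and 11.1 CPM in null mice 18217 and 18219. ALP held 39.8, 31.9, 92.6 and 171 CPM, and BLP 98.0, 182.12, 181.59 and 286 CPM. The null libraries were above both controls in LMPP and ALP, whereas in BLP null mouse 18217 and control mouse 18220 gave nearly equal values. Each ALP library exceeded every LMPP library. From LMPP to ALP the rise was 4.35 ± 0.51 log2 units (edgeR adjusted p = 0.00643, range over alternatives 4.29e-19 to 0.153). From LMPP to BLP it was 5.75 ± 0.55 (edgeR adjusted p = 0.00133), while the last step of 1.40 ± 0.45 was not called (adjusted p = 0.407). The first of these calls was lost without each mouse in turn (edgeR adjusted p from 0.0789 without mouse 18217 to 0.153 without mouse 18220), and the second without mouse 18220 alone (0.0612).

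In null mice Mzb1 was higher than in controls by 2.16 ± 0.67 log2 units in LMPP, 1.88 ± 0.65 in ALP and 0.74 ± 0.63 in BLP, and none of these was called (edgeR adjusted p = 0.698, 1 and 0.783). At unadjusted p the LMPP and ALP values were 0.0107 and 0.0187 in edgeR. The LMPP difference passed in DESeq2 (adjusted p = 0.0327), the lowest of a range that reached 0.955. Group means were 1.60 ± 0.85 against 7.13 ± 5.61 CPM in LMPP, 35.9 ± 5.55 against 132 ± 55.4 in ALP and 140 ± 59.5 against 234 ± 73.8 in BLP (SD, n = 2, control against null). Taken by the order of columns in the table, which sets mice 18217 and 18218 first and mice 18219 and 18220 last, the ALP difference was 1.22 within the first pair and 2.42 within the last. The last pair holds the ALP libraries in which many cells failed the filter. At equal depth the shares of cells with a read were 6.38% and 4.26% in control and 13.3% and 8.51% in null LMPP, 35.1% and 30.0% against 44.3% and 69.0% in ALP, and 52.9% and 54.3% against 63.9% and 71.4% in BLP. Null shares were higher at each stage, again at the smallest p the exact permutation test allows (0.333).

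**Figure D2:**
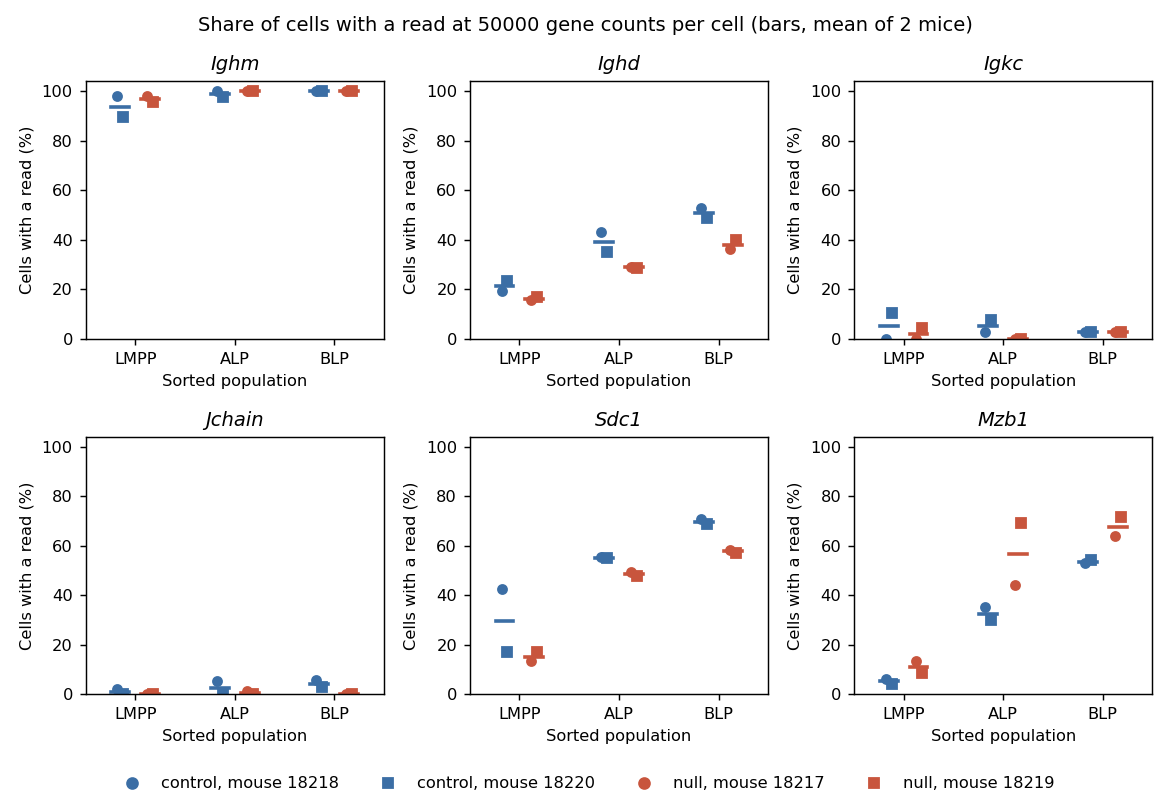
Percent of cells with at least 1 read of each gene after thinning every cell to 50000 gene counts, by population, with 1 point per mouse and bars at the mean of 2 mice. Ighm is near 100% throughout, Mzb1 reaches 71.4% in BLP of null mouse 18219, and Igkc does not exceed 10.6%.

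Transcripts of the early B lineage were compared beside Mzb1. In ALP, Ebf1, the transcription factor that commits cells to the B lineage, was 22.3 CPM in control and 185 CPM in null mice on average and rose by 3.05 ± 0.26 log2 units in the null (edgeR adjusted p = 0.0260). Of the 14 early B genes tested, 12 were higher in null ALP, with a median difference of 2.60 against 0.00 over all genes tested, and Ebf1 was the 1 called. The Ebf1 call was lost in 9 of 14 alternatives, among them without each of the 4 mice (edgeR), with adjusted p from 6.38e-26 to 1 and a difference of 2.65 to 3.47 log2 units. In LMPP, where the Mzb1 difference was 2.16, 8 of 14 early B genes were higher in null mice with a median of 0.08, and in BLP 8 of 14 with a median of 0.28. At equal depth Ebf1 was read in 20 of 74 and 9 of 40 control ALP (mice 18218 and 18220) and in 55 of 79 and 32 of 42 null ALP (18217 and 18219). Among ALP with an Ebf1 read, Mzb1 was read in 50.0% and 33.3% of control cells and in 52.7% and 84.4% of null cells. Among ALP without one it was read in 29.6% and 29.0% of control cells and in 25.0% and 20.0% of null cells. The null shares without Ebf1 rest on 6 of 24 and 2 of 10 cells, and among Ebf1-positive cells null mouse 18217 was close to control mouse 18218. These differences within the split were not tested. The part of Ebf1-positive cells in the Mzb1 difference was not tested. At 10 reads or more, Mzb1 was found in 16 of 20 Pax5 cells in ALP (80.0%, against 43.0% of all ALP) and in 42 of 44 in BLP (95.5% against 61.4%). For Cd79a cells this was 0 of 5 in LMPP, 51 of 64 in ALP (79.7%) and 75 of 101 in BLP (74.3%). Pax5 maintains B cell identity and Cd79a is a signalling chain of the B cell receptor, and cells of 1 mouse are not independent replicates in these counts. The counts also pool both genotypes. In ALP, Pax5 averaged 0.89 CPM in control and 29.5 CPM in null mice, and Cd79a 8.04 and 185 CPM. Since Mzb1 was higher in null ALP as well, these shares mix genotype with co-detection.

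**Figure D3:**
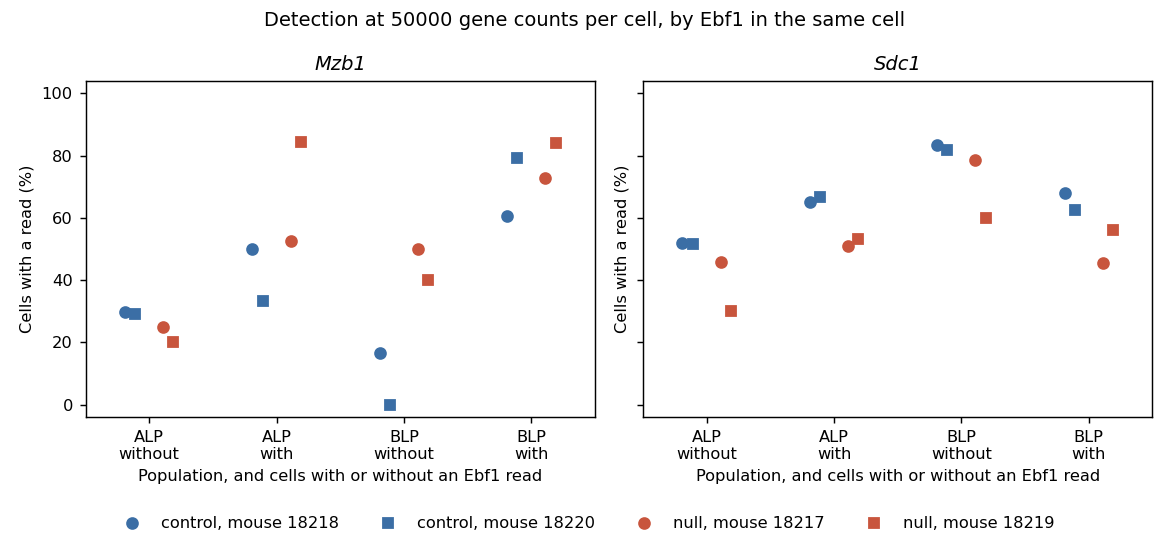
Percent of cells with an Mzb1 read (left) or an Sdc1 read (right) after thinning, in ALP and BLP split by whether the same cell held an Ebf1 read, with 1 point per mouse. Mzb1 in ALP without Ebf1 lies between 20.0% and 29.6% in every mouse, and in ALP with Ebf1 between 33.3% and 84.4%.

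Sdc1, on the plus strand at chr12:8771323-8793715 with 7 exon blocks, was lower in both null mice than in both control mice at each stage. In LMPP it stood at 77.6 and 87.0 CPM in control mice 18218 and 18220 and at 20.6 and 20.4 CPM in null mice 18217 and 18219. ALP gave 105, 219, 86.5 and 93.5 CPM, and BLP 173, 204, 92.2 and 130 CPM, in the same order. Groups did not overlap in any population, and the gap was proportionally widest in LMPP. Means were 82.3 ± 6.68 against 20.5 ± 0.14 CPM in LMPP, 162 ± 81.0 against 90.0 ± 4.98 in ALP and 189 ± 21.8 against 111 ± 26.6 in BLP (SD, n = 2, control against null). On the log2 scale the null minus control differences were −2.01 ± 0.34, −0.85 ± 0.33 and −0.77 ± 0.33. None was called (edgeR adjusted p = 0.371, 1 and 0.564), although the unadjusted p in LMPP was 0.000289 in edgeR. That LMPP difference was called in DESeq2 and in edgeR without the filter on low counts, and its adjusted p ranged from 2.34e-05 to 0.949.

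In LMPP the level of Sdc1 in controls rested partly on single cells. In mouse 18220, 1 cell with 8830 reads held 73.4% of the Sdc1 reads of its library. With the largest cell of every library set aside, the LMPP difference was −1.51 log2 units (edgeR adjusted p = 0.688). At equal depth 42.6% and 17.0% of control LMPP held an Sdc1 read, against 13.3% and 17.0% of null LMPP, so control mouse 18220 and null mouse 18219 gave the same share. The shares were 55.4% and 55.0% against 49.4% and 47.6% in ALP, and 70.6% and 68.6% against 58.3% and 57.1% in BLP. In ALP with an Ebf1 read, Sdc1 was read in 65.0% and 66.7% of control and 50.9% and 53.1% of null cells. In ALP without one the shares were 51.9% and 51.6% against 45.8% and 30.0%. Null shares of Sdc1 were the lower in both kinds of ALP and of BLP. BLP gave 67.9% and 62.5% against 45.5% and 56.0% with Ebf1, and 83.3% and 81.8% against 78.6% and 60.0% without. Several of these shares rest on few cells. Those of null ALP without Ebf1 rest on 11 of 24 and 3 of 10 cells. Those of BLP without Ebf1 rest on 5 of 6 and 9 of 11 control and 11 of 14 and 6 of 10 null cells. The differences within this split were not tested.

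Between gates Sdc1 rose by 1.56 ± 0.24 log2 units from LMPP to ALP (edgeR adjusted p = 0.0224) and by 1.82 ± 0.24 from LMPP to BLP (adjusted p = 0.00541), and the step from ALP to BLP was 0.26 ± 0.23 (adjusted p = 0.782). The first call was lost without each mouse in turn (edgeR adjusted p from 0.104 without mouse 18218 to 0.331 without mouse 18219). The LMPP to BLP call was lost without mouse 18217 (0.104), 18219 (0.125) or 18220 (0.0612). The step from LMPP to ALP was 0.98 ± 0.33 in control and 2.14 ± 0.34 in null mice, and neither was called within its genotype (edgeR adjusted p = 0.455 and 0.0648). Their difference, 1.16 ± 0.47, had an unadjusted p of 0.0363 and an edgeR adjusted p of 0.941.

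**Figure D4:**
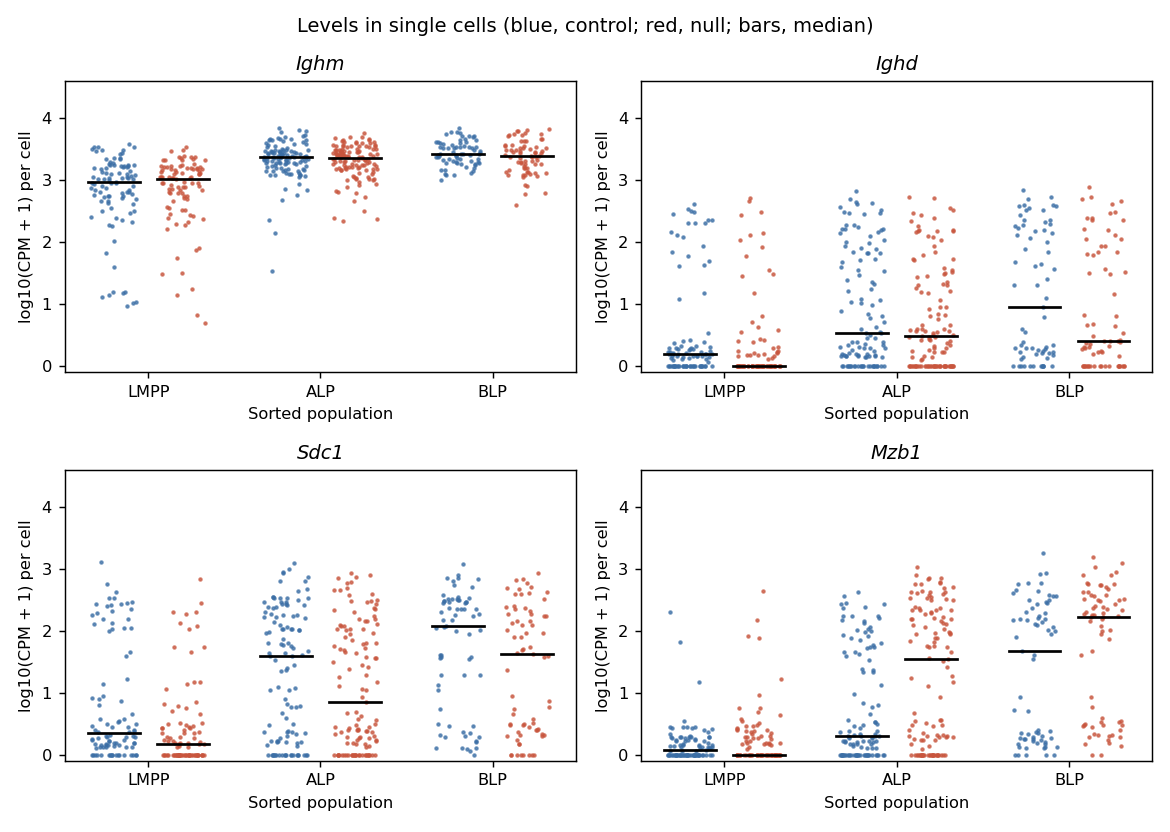
Level of Ighm, Ighd, Sdc1 and Mzb1 in each kept cell as log10(CPM + 1), by population, in blue for control and red for null cells, with bars at the median. Ighm forms 1 band in each population with a low tail in LMPP, whereas Ighd, Sdc1 and Mzb1 are spread between cells at or near 0 and cells above 100 CPM.

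Set against all 19903 genes tested, the members were called more often between gates than between genotypes. In ALP against LMPP over both genotypes, 3 of 6 rose (Ighm, Sdc1 and Mzb1) where 0.724% of all genes did, and in BLP against LMPP 4 of 6 rose where 2.6% did. In BLP against ALP 0 of 6 rose by edgeR, where 0.0301% of all genes did, and DESeq2 called 1 (Mzb1) and limma-voom 0. The share of all genes called by DESeq2 is not given here. At unadjusted p under 0.05 in edgeR that step held Ighm, Ighd and Mzb1, among 1930 of the 19903 genes. Ighm was the 1 member called from LMPP to ALP within control mice, where 0.176% of all genes rose, and likewise within null mice, where 0.156% rose. From ALP to BLP 0 of 6 were called within either genotype, against 0.00502% of all genes in control and 0% in null mice. All 6 passed the filter on low counts, with a median change of 1.37 from LMPP to ALP and 2.16 from LMPP to BLP, where all genes tested had 0.01 and −0.01.

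Between genotypes 0 of 6 members were called in LMPP, ALP or BLP by edgeR, where 0%, 0.00502% and 0.01% of all genes were called. DESeq2 called 2 in LMPP (Sdc1 and Mzb1), and limma-voom called 0 in each population. The share of all genes called by DESeq2 is not given here, so its count of members has no share beside it. At unadjusted p under 0.05 in edgeR the members were Sdc1 and Mzb1 in LMPP, Igkc, Sdc1 and Mzb1 in ALP, and Sdc1 in BLP. Of all 19903 genes, 1345, 896 and 1757 passed that limit in LMPP, ALP and BLP. The 2 interaction tests called 0 members and 0% of all genes. Both null mice lay below both controls in all 3 populations for 2 of 6 members, Ighd and Sdc1, a pattern held by 1.08% of all genes, and the same 4 mice stand behind each population. Both null mice lay above both controls in LMPP and ALP for Mzb1, as for 3.61% of all genes. Across gates, all 4 mice were higher in ALP than any in LMPP for Ighm and Mzb1 (4.19% of all genes), higher in BLP than any in ALP for 0 of the 6 (2.2%), and higher in BLP than any in LMPP for Ighm, Sdc1 and Mzb1 (5.72%).

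**Figure D5:**
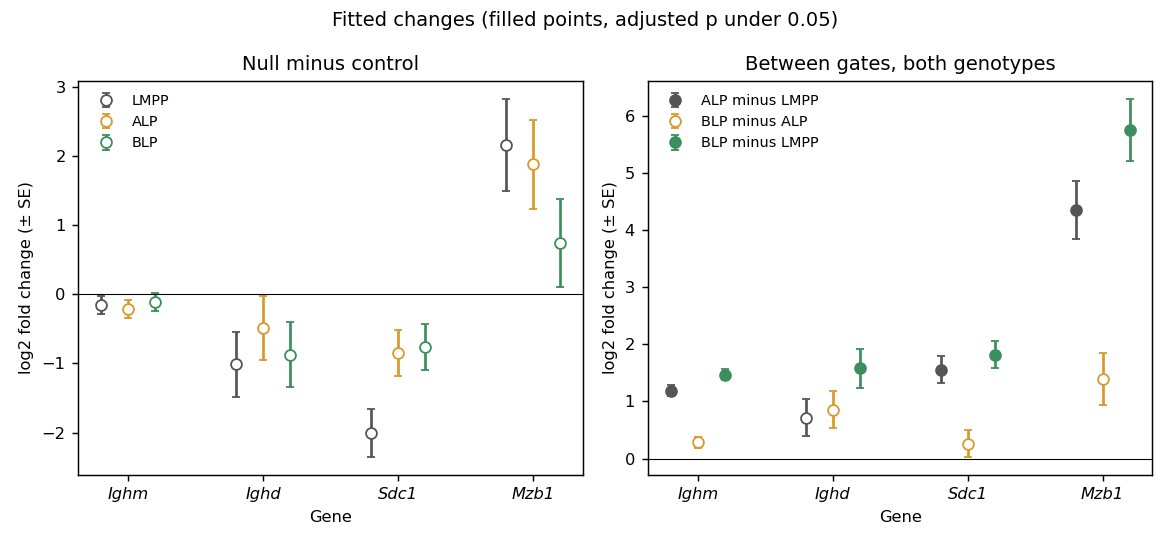
Fitted log2 fold changes with their SE for Ighm, Ighd, Sdc1 and Mzb1, null minus control in each population (left) and between gates over both genotypes (right), with filled points for an adjusted p under 0.05. Filled points lie only in the right panel, and there the open points are those of the step from ALP to BLP and Ighd from LMPP to ALP.

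Lists of other genes of the antibody programme were set beside the members. From LMPP to BLP 2.6% of all genes tested rose. Of 13 constant region genes, 8 could be tested, and over that span 3 rose: Ighg2b and the members Ighm and Ighd. Ighg2b stood at 44.2 CPM in control and 56.7 CPM in null BLP on average, with at least 10 reads in 20 cells, and its rise was 6.87 ± 1.56 log2 units (edgeR adjusted p = 0.0447). Reads may be split among the near-identical Ighg copies, so this gene is uncertain. Among 12 regulators and markers of plasma cells 2 rose from LMPP to BLP. Cd38, a surface enzyme, rose by 8.04 ± 1.18 log2 units (edgeR adjusted p = 0.00795). Irf4, a transcription factor of plasma cells, rose by 4.05 ± 0.79 (edgeR adjusted p = 0.0258), but control means were 3.99 CPM in LMPP and 3.28 CPM in BLP, and null means 0.03 and 10.7 CPM. Prdm1 had 393 reads in all and at least 10 in 5 cells. The summed level of the 12 genes was 608 to 979 CPM over the 12 libraries. The BLP against LMPP calls of Cd38 and Irf4 were each lost without each of the 4 mice in turn, and that of Ighg2b without 2 of the 4.

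Of 16 genes for folding and assembly in the endoplasmic reticulum, Hsp90b1, Sdf2l1 and Herpud1 rose from LMPP to BLP by 0.77, 2.04 and 1.08 log2 units (edgeR adjusted p = 0.0454, 0.0129 and 0.0150). Over that span 2.6% of all genes tested rose. The list's median change was 0.02 there, against −0.01 over all genes, and between genotypes 0 of 16 were called. Without each mouse in turn the calls of Hsp90b1 and Herpud1 were lost in 4 of 4 fits and that of Sdf2l1 in 3. In LMPP 14 of the 16 were higher in null mice, with a median of 0.24. Of the 4 syndecans, Sdc4 rose with Sdc1: by 2.46 from LMPP to ALP and 3.51 from LMPP to BLP (edgeR adjusted p = 0.0328 and 0.00447), calls lost in 4 and 2 of the 4 fits that leave out a mouse. Sdc4 means were 30.5 and 11.6 CPM in LMPP, 106 and 101 in ALP and 295 and 157 in BLP, control and null in turn.

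Plasmacytoid dendritic cells can arise from lymphoid progenitors and are known to carry partial heavy chain rearrangements, so their markers were read beside these values. Of 11 tested, 3 rose from LMPP to ALP (Cox6a2, Siglech and Pld4) and 1 fell (Lair1), where 144 of all 19903 genes rose and 73 fell. Of 15 alternatives, the call was lost in 2 for Cox6a2, 7 for Siglech, 5 for Pld4 and 11 for Lair1. The summed level of the markers in ALP was 1655 to 2815 CPM in control and 755 to 1082 CPM in null mice. In null ALP 10 of 11 were lower, with a median of −0.89, and 0 were called by edgeR. At 10 reads or more, Sdc1 was found in 1 of 7 Siglech cells in LMPP (14.3%, against 22.0% of all LMPP), in 34 of 67 in ALP (50.7% against 50.6%) and in 59 of 76 in BLP (77.6% against 66.4%). Of the 17 Igkc cells 13 held at least 10 Siglech reads, 4 of 4 in LMPP, 3 of 5 in ALP and 6 of 8 in BLP. At that minimum Siglech was found in 7 of 186 LMPP, 67 of 235 ALP and 76 of 140 BLP. The 4 LMPP were all of control mouse 18220 and held 19 to 29 Siglech reads. In LMPP at equal depth, 1 of 7 Igkc cells held Siglech. At equal depth, where 16 cells held an Igkc read, 7 of these held Siglech (43.8%, against 27.5% of all cells) and 8 held Cox6a2 (50.0%, against 63.6%). These counts pool both genotypes, and Siglech averaged 163 CPM in control and 33.6 CPM in null ALP. The part of this marker set in the Sdc1 and Igkc values was not tested. Among 7 T cell genes 0 were called, while in null ALP 7 of 7 were lower with a median of −4.73. That median rests on values near the floor. Apart from Lck, each of the 7 reached 10 reads in only 3 to 15 of 561 cells. Of 8 listed T cell genes, 6 and 2 were under 1 CPM in control ALP (mice 18218 and 18220). In null ALP (18217 and 18219) 6 and 7 were. Summed myeloid markers stood at 327 to 637 CPM in control and 940 to 1004 CPM in null ALP, and at 153 to 275 and 422 to 435 CPM in BLP. The part of the T cell and myeloid markers in the genotype differences of the members was not tested.

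At 10 reads or more Mzb1 was found in 43.7% of 119 Sdc1 cells in ALP, against 43.0% of all ALP, and in 62.4% of 93 Sdc1 cells in BLP, against 61.4% of all BLP. Sdc1 was found in 56.2% of 89 Ighd cells in ALP (50.6% of all ALP) and in 61.3% of 62 Ighd cells in BLP (66.4% of all BLP). In ALP and BLP these shares lay near that of all cells of the gate. In LMPP, Sdc1 was found in 12 of 33 Ighd cells (36.4%, against 22.0% of all LMPP). Mzb1 was found there in 3 of 41 Sdc1 cells (7.32%, against 3.76%). These counts are small, pool both genotypes and were not tested. Over the 12 libraries, the levels most like Ighm were those of Mpeg1 (Pearson r = 0.980 of log2 CPM), Tpm4 and Colq, among 7587 genes at a mean of at least 20 CPM. For Mzb1 they were Hes1 (r = 0.975), Myl4 and Kcng1, for Sdc1 Sorcs2 (0.965), Il18r1 and St8sia4, and for Ighd Inpp4a (0.905), Tardbp and Phlda3. For Igkc and Jchain the closest were Tor4a (0.878) and Tent4b (0.833). The 12 libraries share 4 mice and 3 gates, so these are descriptions of likeness, with no test.

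Promoters of Jchain and Sdc1 were found in the RefSeq table (GRCm38.p6) and searched on both strands over the 250 bases before the start. Neither held the octamer ATGCAAAT, the E-box CAGGTG or the unfolded protein response element TGACGTGG, which were in 1.60%, 17.2% and 0.563% of 32851 promoters. No match says only that these letters are not in this window.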

How the data were processed

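Single cells sorted into 96-well plates were sequenced by a full-length protocol, per the labels. The authors deposited 1 table of raw read counts per gene and cell, without molecular identifiers. The submitters' processing notes name GSNAP, HTSeq 0.5.3p3 and GRCm38. The annotation release and the strand setting are unknown here. Of all entries 43.2% were on genes, and the remaining 56.8%, on spike-ins or in HTSeq's summary lines, were not used in any fit.

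Cells with at least 50000 nuclear gene counts, 1000 nuclear genes, at most 20% mitochondrial and at most 50% spike-in counts were kept. Each well held 1 sorted cell, so no doublet caller was run. Counts were summed per mouse and population into 12 libraries of 6 groups. One fit used edgeR 4.0.16 (TMM, its filter on low counts, quasi-likelihood test) in R 4.3.3, on 19903 genes with 6 residual degrees of freedom. Benjamini-Hochberg adjustment ran over all genes, with a threshold of 0.05. The replicates are mice, and with 2 per group p-values measure the spread among these mice. CPM scale counts to a common library size. Shares were taken after thinning each cell to 50000 gene counts, and mice were compared with an exact permutation test, two-sided. The limit for a count of 0 uses 3 counts and covers counting error over cells only. It leaves out spread between mice, and reads without identifiers are not independent molecules.

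Alternatives were DESeq2 1.42.0, limma-voom (limma 3.58.1), DESeq2's size factors in edgeR, no filter on low counts, all sorted cells, each gene without its largest cell, thinned cells, only the populations compared, mouse as a replicate block, the fit with both low-yield ALP libraries (mice 18219 and 18220) removed, and leaving out each mouse. A block for the order of columns in the table was chosen after seeing the data. The same mouse gave all 3 populations, so its number pairs the gates, and deviations of its libraries from the group means correlated by 0.0341 to 0.0694 across genes. The test was also tried on simulated data, with the same spread for every gene and with independent libraries. Constant region junctions and exon lengths come from the GRCm38 reference annotation and genome.

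The members and gene lists were chosen with earlier results of these data known. All 6 members were named. From each other list, members past the threshold were eligible, otherwise up to 3 with the smallest p, and for each member the 3 genes of most similar level. Single cells, Prdm1 and co-detected genes were singled out after their values were seen. Differences between C57BL6 and 129Ola alleles were not analysed here.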

Additional observations from a re-analysis of the deposited data

How the results depend on the processing

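Between genotypes in LMPP it was 0, but 1 without the filter on low counts (Sdc1) and 2 in DESeq2 (Sdc1 and Mzb1). From ALP to BLP it was 0, but 1 in DESeq2 (Mzb1). From LMPP to ALP it was 3, but 1 with both low-yield ALP libraries (mice 18219 and 18220) removed, 2 in limma-voom and 2 with only the populations compared in the fit, where Sdc1 was lost, and 0 to 1 with a mouse left out. From LMPP to BLP it was 4, but 3 without Ighd in the fits with both low-yield libraries removed or with only the populations compared, and 1 to 3 with a mouse left out, where the lone mouse of a genotype is assumed to vary like the others. With mouse as a replicate block the members called were 3 from LMPP to ALP, 0 from ALP to BLP and 4 from LMPP to BLP, as without it. The genes called overall ranged from 0 to 495, 0 to 271 and 0 to 800 between genotypes in LMPP, ALP and BLP (0, 1 and 2 as reported), and from 15 to 1503, 0 to 748 and 69 to 3347 for LMPP to ALP, ALP to BLP and LMPP to BLP (217, 8 and 938).

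Sign changes touched values that were not called. The Ighm interaction from LMPP to ALP (−0.06) became 0.12 with both low-yield ALP libraries removed, and ranged from −0.35 to 0.26 with a mouse left out. That from ALP to BLP (0.10) became −0.090 without those libraries and ranged from −0.053 to 0.21. The Ighd step from LMPP to ALP in controls (0.46) ranged from −0.13 to 1.36 with a mouse left out. The Ighd interaction from LMPP to ALP (0.52) became −0.11 with thinned cells and ranged from −0.39 to 1.11 with a mouse left out, and that from ALP to BLP (−0.38) became 0.20 with thinned cells. The Sdc1 step from ALP to BLP in controls (0.22) ranged from −0.094 to 0.74 with a mouse left out. The Sdc1 interaction from ALP to BLP (0.08) became −0.00052 with the mouse as a replicate block, −0.52 without both low-yield libraries and −0.16 in limma-voom, and ranged from −0.44 to 0.40 with a mouse left out. The Mzb1 interaction from LMPP to ALP (−0.28) became 0.73 with thinned cells and ranged from −0.77 to 0.39 with a mouse left out. The cause was not tested. Shares of cells with a read depend on depth: 31 moved without thinning and 13 with a minimum of 10 reads.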

Other observations

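Wells left out by the cell filter also held Ighm reads. Their median was 21 reads, against 2631 in kept cells. Ighd reached 10 reads in 1 of these wells, Igkc in 2, Mzb1 in 1, and Sdc1 and Jchain in 0.

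The cell with the most Igkc reads, a control BLP of mouse 18218 with 508, also held 36190 reads of Ighm, 16377 of Siglech and 1740 of Cd79a. The cell with the most Jchain reads, a control ALP of the same mouse with 812, held 141 reads of Mzb1, 0 of Sdc1 and 1 of Siglech. Both cells were singled out after their values were seen, and each is 1 cell.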
